A study of Hipposideros armiger with 2 samples.

Results

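The hypoxia-inducible factor (HIF) genes and the oxygen-sensing machinery around them were described in 2 RNA libraries labelled liver of the great Himalayan leaf-nosed bat, Hipposideros armiger. The set was fixed by name and held 10 genes: the HIF alpha subunits HIF1A, EPAS1 and HIF3A, the beta subunit ARNT, the oxygen sensors EGLN1, EGLN2, EGLN3 and HIF1AN, the ubiquitin ligase subunit VHL and the target gene VEGFA. An assembled gene, which is a cluster of de novo assembled transcripts, was taken as a member when the symbol of its best Swiss-Prot protein match equalled one of these names. Of the 10 names, 9 were found, on 19 of the 55378 assembled genes and among 12783 distinct names. HIF3A had 0 assembled genes with its name in the tables used here and was not analysed. Both libraries carry the code of the cave at Chunwan (CW) in Guangdong, were labelled wild type (WT) and as exposed to heavy metals, and form 1 group of 2 replicates. The replicate 2 label adds an adult male, and the design text describes male adults from a cave at each of the sites Chunwan and Yingde. Yingde animals were not analysed here, so levels were described within the CW group and no test between groups was made. Whether the replicates are separate animals is not said in the labels, so their spread may be technical.

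HIF alpha subunits are made continuously, and in the presence of oxygen the EGLN prolyl hydroxylases mark them for capture by VHL, ubiquitination and destruction. HIF1AN, also called FIH, hydroxylates an asparagine that blocks the contact with coactivators. When oxygen is low the alpha subunits escape both steps, pair with ARNT and switch on genes such as VEGFA, EGLN3 and those of glycolysis. Since this control acts on the proteins, mRNA levels of the alpha subunits do not report HIF activity. EPAS1, which encodes HIF-2 alpha, is known for high expression in endothelium and lung.

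The libraries held 18741210 expected counts in replicate 1 and 18778331 in replicate 2. TPM (a level scaled for transcript length and depth) was summed over all assembled genes of a name. Pairs of values below give replicate 1 first. The tissue label was checked against marker lists. All 16 hepatocyte markers were found, with none at 0, and all 16 were over 2-fold lower in replicate 2, where they summed to 431 TPM against 12998 TPM in replicate 1. Alveolar and airway epithelium markers, all 12 of them found, summed to 12453 and 19818 TPM. Markers of general endothelium, 10 of 10 found, summed to 399 and 583 TPM. Those of liver sinusoidal endothelium, 5 of 7 found, summed to 134 and 51.9 TPM. In such bulk libraries fewer cells of a type and less RNA per cell cannot be told apart. Alveolar and airway markers at these levels go against the liver label in both libraries, as do the low hepatocyte markers of replicate 2. The label was kept as given, and each mean ± SD below pools these unlike libraries. The part of these cell types in the values below was not tested.

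Among the alpha subunits, EPAS1 was the more abundant transcript in both libraries. It reached 123 and 161 TPM (142 ± 27.2, mean ± SD, n = 2, as for all values given with ±), from 13278 and 17171 counts. HIF1A, the alpha subunit of HIF-1, reached 21.8 and 27.0 TPM (24.4 ± 3.7), from 806 and 921 counts. EPAS1 was therefore at 5.63 times the TPM of HIF1A in replicate 1 and 5.96 times in replicate 2. Of the summed TPM of these 2 alpha subunits, EPAS1 held 84.9% in replicate 1 and 85.6% in replicate 2. The factor depended on how a level was defined: counts per kilobase of the assembled gene with most counts put EPAS1 at 11.5 and 13.2 times HIF1A. That assembled gene was 5324 bases long for EPAS1 and 3723 bases for HIF1A. The direction was the same in both libraries by either measure.

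The EPAS1 signal was spread over 5 assembled genes. The one of 5324 bases, whose listed protein domain was a PAS fold (the dimerisation module of these factors), held 98.8% of EPAS1 counts and was at 105 and 154 TPM. An assembled gene of 2015 bases listed the C-terminal transactivation domain of HIF alpha, the part that HIF1AN modifies, and had 94 counts in each library. Another of 1071 bases listed a PAS fold and had 55 and 80 counts. The remaining pair, of 369 and 251 bases with no listed domain, had 26 and 3 counts in replicate 1 and 0 in replicate 2. Against a floor of 3 counts per library, the former was at least 10.5-fold lower in replicate 2 after TMM scaling. Of all assembled genes with 20 to 30 counts in replicate 1, 10.6% had 0 counts in replicate 2, whereas 0.0943% of those with 20 to 30 counts in replicate 2 had 0 in replicate 1. Without this pair EPAS1 was at 112 TPM in replicate 1 and still at 161 TPM in replicate 2, a ratio of 1.44 in place of 1.31.

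HIF1A lay on 2 assembled genes. The longer, best matched to cattle, listed a PAS fold and held 98.2% of HIF1A counts. The shorter, of 342 bases, listed the HIF-1 domain and had 13 and 18 counts, yet it supplied 4.63 and 7.45 TPM of the HIF1A sums, a measure that divides by length. ARNT, the constitutive partner of both alpha subunits, was at 10.4 and 13.6 TPM (12.0 ± 2.3) on 1 assembled gene of 3648 bases. Its TPM was thus 0.478 and 0.504 times that of HIF1A, and it was the lowest of the 3 subunits found in both libraries.

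**Figure D1:**
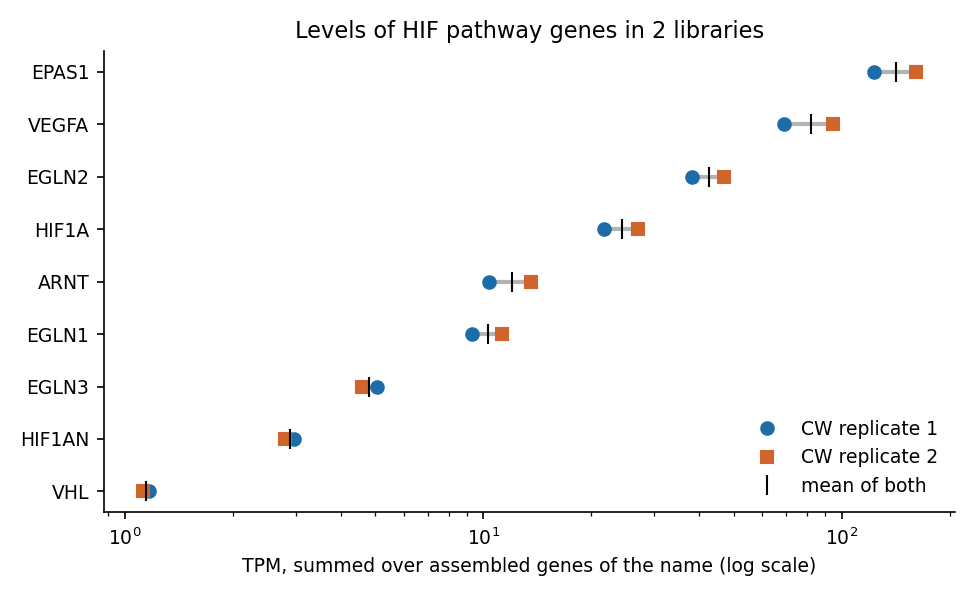
TPM of the 9 genes found, on a log axis, with 1 point per library, a grey bar between them and a tick at the mean. EPAS1 sits highest at 123 and 161 TPM and VHL lowest at 1.17 and 1.12 TPM; the ranges of ARNT and EGLN1 overlap.

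The prolyl hydroxylases differed in level by more than the 2 libraries did. EGLN2, also called PHD1, was highest with 38.1 and 47.0 TPM (42.5 ± 6.3), from 1246 and 1421 counts. EGLN1, or PHD2, the main sensor that holds HIF1A down in most cells, was at 9.31 and 11.3 TPM (10.3 ± 1.4), from 651 and 754 counts. EGLN3, or PHD3, itself a HIF target in many tissues, was at 5.04 and 4.58 TPM (4.81 ± 0.33), from 164 and 160 counts. The 3 enzymes' ranges over the libraries did not overlap. EGLN2 made up 72.6% and 74.7% of their summed TPM, EGLN1 17.8% and 18.0%, and EGLN3 9.61% and 7.29%. By counts per kilobase of the main assembled gene EGLN2 was 2.55 and 2.48 times EGLN1, against 4.09 and 4.16 times by summed TPM.

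The 2 assembled genes of EGLN1 listed different domains. The main EGLN1 assembled gene of 3360 bases listed the 2-oxoglutarate and iron-dependent oxygenase domain, the catalytic fold, and a short one of 588 bases with 10 and 5 counts listed the MYND zinc finger. All 3 EGLN2 assembled genes listed the oxygenase domain, and the longest had 19 assembled isoforms, the highest number among the genes of the set. EGLN3 had an assembled gene of 2694 bases with 159 and 157 counts and another of 294 bases with 5 and 3 counts. These 2 gave nearly the same TPM in replicate 1, 2.53 and 2.51, and the longer held 50.2% and 61.6% of the summed TPM of EGLN3.

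HIF1AN, the asparaginyl hydroxylase, was at 2.97 and 2.79 TPM (2.88 ± 0.13) on 1 assembled gene that listed the Cupin fold of this enzyme family. By summed TPM EGLN3 exceeded it by 1.70 and 1.64 times. By the main assembled gene alone EGLN3 was at 0.852 times HIF1AN in replicate 1 and 1.01 times in replicate 2, so their order depended on whether the 294-base fragment was counted.

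VHL, which recognises hydroxylated HIF alpha, had the lowest level of the 9 genes: 1.17 and 1.12 TPM (1.15 ± 0.035). It rested on 27 and 23 counts of 1 assembled gene of 1187 bases that listed the VHL domain, with exact Poisson 95% intervals of 17.8 to 39.3 and 14.6 to 34.5 counts. VEGFA, the angiogenic growth factor induced by HIF, was second highest with 69.0 and 94.7 TPM (81.9 ± 18.2), from 2181 and 2623 counts. Its 2 assembled genes listed different domains, the heparin-binding end on 2864 bases with 1975 and 2363 counts, and the growth factor core on 973 bases with 206 and 260 counts.

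From high to low, the order by mean TPM was EPAS1, VEGFA, EGLN2, HIF1A, ARNT, EGLN1, EGLN3, HIF1AN and VHL. ARNT and EGLN1 were the only neighbours whose ranges over the libraries overlapped. By counts per kilobase of the main assembled gene ARNT was below EGLN1, at 0.848 and 0.833 times its value. Among 12684 names with a count in either library, EPAS1 ranked 430 by mean TPM (the top 3.39%), VEGFA 752, EGLN2 1568 and HIF1A 2860. ARNT ranked 5499, EGLN1 6162, EGLN3 9341, HIF1AN 10940 and VHL 12256. The set therefore ran from the upper end of the expressed names to the lower end.

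The members were also placed within the protein families that the tables list, a comparison chosen after the values were seen. Of 13 names with a listed PAS domain, EPAS1 had the highest mean TPM and HIF1A the third. The clock gene PER1 lay between them, at 46.6 and 73.2 TPM. Of 19 names with a listed domain of the 2-oxoglutarate and iron-dependent oxygenase family, EGLN2 ranked 2, EGLN1 10 and EGLN3 17. These ranks hold only among names so annotated, which do not include every prolyl hydroxylase found. The highest was ALKBH7, a mitochondrial member of the family, at 80.0 and 129 TPM, while PLOD3, a lysyl hydroxylase of collagen, followed EGLN2 at 26.5 and 34.6 TPM.

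**Figure D2:**
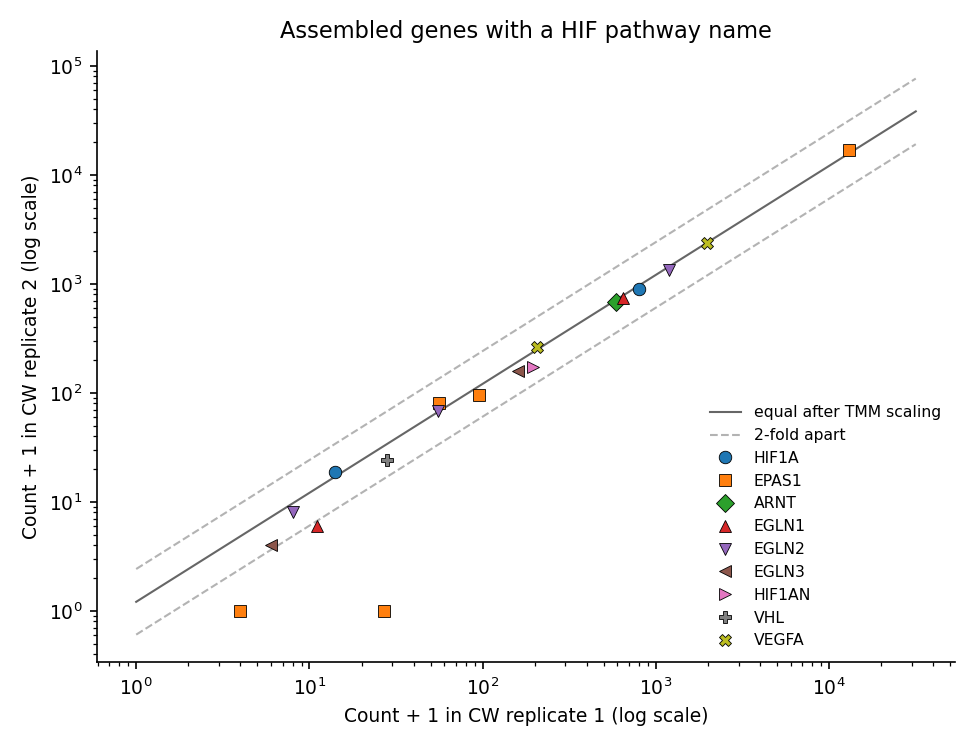
Counts plus 1 of the 19 assembled genes in replicate 1 (x axis) and replicate 2 (y axis), both on log axes, with symbols for the 9 genes. The solid line marks equal levels after TMM scaling and the dashed lines 2-fold; both EPAS1 points at 0 counts in replicate 2 lie below the lower dashed line, with 26 and 3 counts in replicate 1, as does by little the EGLN1 point at 10 and 5 counts.

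The libraries were then compared gene by gene. The measure was the log2 ratio of replicate 2 over replicate 1 on scaled CPM (counts scaled to library size) plus 1, with the median of all names removed. All 9 genes found passed the filter of a mean of 1 CPM. The count of those over 2-fold apart was 0 of 9, beside 5.19% of the 11289 names tested: 5.16% lower in replicate 2 by that margin and 0.0266% higher. Of their 19 assembled genes 13 passed the filter and 0 were over 2-fold apart, beside 6.9% of 22028 assembled genes (6.8% lower, 0.0999% higher). Beside such shares, counts of 0 in sets this small are no result about these genes. The 9 ratios ran from -0.39 to 0.11 with a median of -0.07, beside a median set to 0 and a 25th to 75th percentile range of -0.17 to 0.13 over all names. These are ratios of 1 library to 1 library and have no replicate check, so no p-value was computed.

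EPAS1 had the highest ratio of the set, 0.11, with a counting interval of 0.08 to 0.14 (exact 95%, counting error only). VEGFA followed at 0.004, with an interval of -0.08 to 0.09. VEGFA's sign changed under 3 of the alternatives, to -0.01 in each, so it is given no direction. HIF1A (-0.07), EGLN2 (-0.07), ARNT (-0.06) and EGLN1 (-0.05) lay close together, and each interval held 0. These 6 genes fell between the 25th and 75th percentiles of all names, and the other 3 lay below them.

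Those 3 were the genes with the fewest counts. HIF1AN had a ratio of -0.39 with an interval of -0.74 to -0.13, EGLN3 of -0.27 with -0.62 to 0.03, and VHL of -0.28 with -1.36 to 0.36. The VHL interval held both 0 and a 2-fold lower level, so its ratio could not be told from 0 at this depth. These intervals belong to ratios of scaled counts without the added 1. Those were -0.44 for HIF1AN, -0.30 for EGLN3 and -0.49 for VHL. The TPM themselves were higher in replicate 2 for 6 of the 9 genes, whereas the scaled ratio was above 0 for 2 of them. Under library size scaling the median of all names was 0.24. When that median was also kept, HIF1A, ARNT, EGLN1 and EGLN2 turned positive, between 0.18 and 0.20. EPAS1 was higher in replicate 2 under each alternative run, between 0.06 and 0.37. Beside it, the marker lists of general endothelium and of alveolar and airway epithelium had median ratios of 0.15 and 0.22, with 10 of 10 and 11 of 11 tested members above 0. Liver sinusoidal endothelium ran the other way, its median ratio being -1.55. Of its 4 markers that passed the filter, 3 fell more than 2-fold in replicate 2, and LYVE1 was at 0.07. The part of these cell types in the EPAS1 ratio was not tested.

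**Figure D3:**
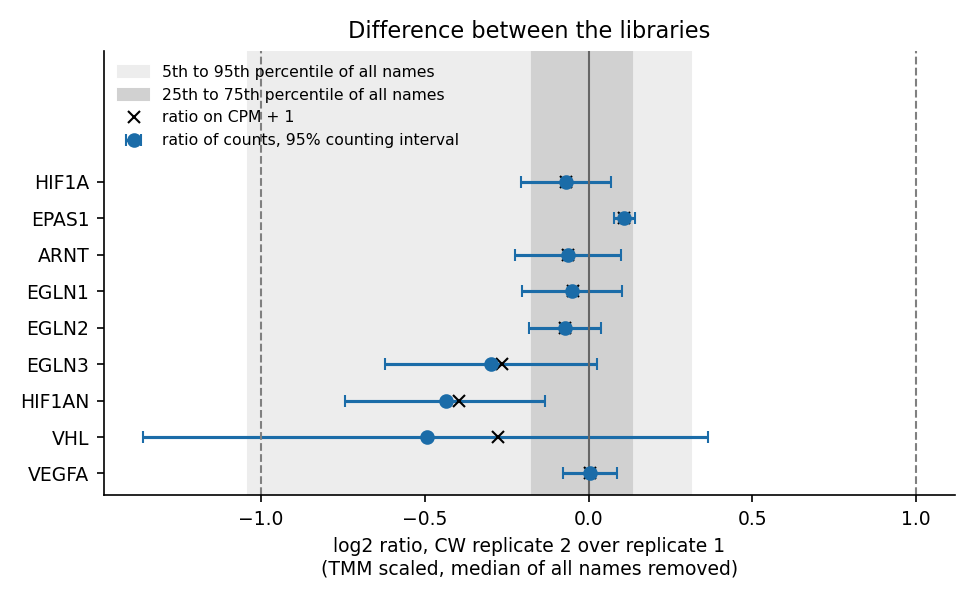
Log2 ratio of replicate 2 over replicate 1 for the 9 genes: circles with 95% counting intervals are ratios of scaled counts, crosses those on CPM plus 1, and grey bands the central ranges of all 11289 names. All crosses lie between -0.39 and 0.11, inside the dashed lines at 2-fold.

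The wider pathway was described through 10 gene lists of 136 symbols, of which 122 were found and 112 passed the filter. Past 2-fold, 10 of the 112 were lower in replicate 2 (5.16% of all names were) and 0 were higher, and their median was -0.08. With library size scaling and the median kept, 6 were over 2-fold lower, and the share of all names on that scale is not given here. The 10 were named SUCLG1, SUCLG2, SDHA, SDHB, FH, GAPDH, PGK1, ENO1, HMOX1 and PPP1R3C, the last 2 named after their values were seen. They came from 3 of the 10 lists.

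Partners of VHL in its ubiquitin ligase were all found, and 0 of 4 were over 2-fold apart. The adaptor ELOB (listed under its older symbol TCEB2, as ELOC is under TCEB1) was at 219 and 219 TPM, the RING subunit RBX1 at 48.3 and 46.6, the adaptor ELOC at 11.1 and 13.7, and the scaffold CUL2 at 4.07 and 5.94. Among these ligase genes VHL thus had the lowest transcript level by TPM in both libraries, and protein levels were not measured.

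Coactivators and ARNT partners were found for 6 of 11 symbols, and 0 of 5 tested were over 2-fold apart. CITED2, which competes with HIF for the coactivators, was at 31.5 and 43.8 TPM. The acetyltransferase coactivators EP300 and CREBBP were at 26.6 and 33.1, and at 15.3 and 13.2 TPM. CITED4 was at 10.6 and 16.4 TPM. Other regulators of HIF stability were found for 13 of 13 symbols with 0 over 2-fold apart, led by RACK1 (listed as GNB2L1), a ribosomal scaffold that also binds HIF1A, at 298 and 334 TPM. FKBP8, which binds EGLN1, was at 93.6 and 96.3 TPM, OS9 at 78.0 and 91.0, and the ubiquitin ligase STUB1 at 57.8 and 67.2.

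Relatives of the sensors, like the lists above, were read against the 5.19% of all names over 2-fold apart, a share that makes 0 in lists this short no result about them. Procollagen prolyl and lysyl hydroxylases were found for 7 of 8 symbols, 0 of 7 over 2-fold apart. P4HB, the disulfide isomerase subunit of the procollagen prolyl hydroxylases, was at 289 and 170 TPM but had a ratio of -0.28 on counts. PLOD3 (26.5 and 34.6 TPM), P4HA2 (19.1 and 30.5) and PLOD1 (19.0 and 28.5) followed. JmjC, TET and thiol dioxygenases were found for 17 of 19 symbols, 0 of 15 tested over 2-fold apart. The histone demethylases KDM6B (17.8 and 22.5 TPM), KDM2A (17.8 and 20.7) and KDM4B (13.0 and 18.3) and the hydroxylase JMJD6 (16.3 and 20.5) led them.

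Enzymes of 2-oxoglutarate, succinate and fumarate, metabolites that serve as substrate or inhibitors of the EGLN enzymes, held 5 of the 10 lower genes. These were 5 of its 17 tested members, where 5.16% of all names lay that far on the lower side. This count, like that of the 10 lower genes, was not planned beforehand. It was 4 with library size scaling and the median kept, and 6 with ratios from TPM. The 5.16% belongs to the main setting, and the share of all names under these alternatives is not given here. In the main setting 0 were over 2-fold higher, where 0.0266% of all names lay. Their median was -0.47, beside 0 over all names. SUCLG1, a subunit of succinyl-CoA ligase, was at 253 and 43.2 TPM with a ratio of -1.78, and its partner SUCLG2 at 73.1 and 18.5 TPM with -1.46. A fragment of 258 bases supplied 166 and 3.3 TPM of the SUCLG1 sums from 227 and 4 counts. The main SUCLG1 assembled gene of 1246 bases was at 83.9 and 36.2 TPM. The succinate dehydrogenase subunits SDHB (129 and 43.6 TPM) and SDHA (149 and 46.7 TPM) had ratios of -1.50 and -1.04. Fumarase, FH, had a ratio of -1.82 from 1530 and 504 counts, although its summed TPM were 96.0 and 81.9. In these libraries hepatocyte markers had a median ratio of -4.42, and their part in the values of these enzymes was not tested.

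Among HIF targets of glucose metabolism, 3 of 19 tested members lay beyond 2-fold on the lower side and 0 on the higher side, beside 5.16% and 0.0266% of all names, with a median of -0.08. The 3 glycolytic enzymes were GAPDH (1261 and 535 TPM, ratio -1.11), ENO1 (302 and 196 TPM, -1.22) and PGK1 (65.4 and 48.0 TPM, -1.15). TPI1 lay just inside 2-fold at -0.97, with 161 and 115 TPM, and ALDOA, the muscle-type aldolase, was at 485 and 657 TPM with -0.08. Of the other HIF targets 2 of 23 tested lay beyond 2-fold on the lower side, near the 5.16% of all names: HMOX1, which breaks down heme, with 78 and 5 counts, and PPP1R3C, a glycogen-targeting phosphatase subunit, with 125 and 40 counts. The mitophagy receptors BNIP3 (46.7 and 44.8 TPM) and BNIP3L (30.3 and 32.8) and the mTOR inhibitor DDIT4 (56.5 and 55.6) were within 2-fold. The symbol EPO, the kidney and liver hormone governed by HIF-2, matched 0 assembled genes and was not analysed here.

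VEGFA's relatives and receptors were found for all 9 symbols, and 0 of 7 tested were over 2-fold apart, with a median of 0.08. VEGFA was higher in TPM than any of them in both libraries. VEGFB was at 29.3 and 40.9 TPM, VEGFD at 7.98 and 12.1, and the coreceptor NRP1 at 9.88 and 13.9. The main VEGFA receptor KDR was at 24.7 and 37.0 TPM, with a ratio of 0.18, the highest of this list. The ratios of the list ran down to -0.47, and 5 of 7 were above 0. The angiopoietin receptors TIE1 (12.0 and 14.9 TPM, ratio 0.13) and TEK (9.43 and 12.2 TPM, ratio -0.15) were found. TIE1 was also on the endothelial marker list. ANGPT1 and ANGPT2 matched 0 assembled genes.

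**Figure D4:**
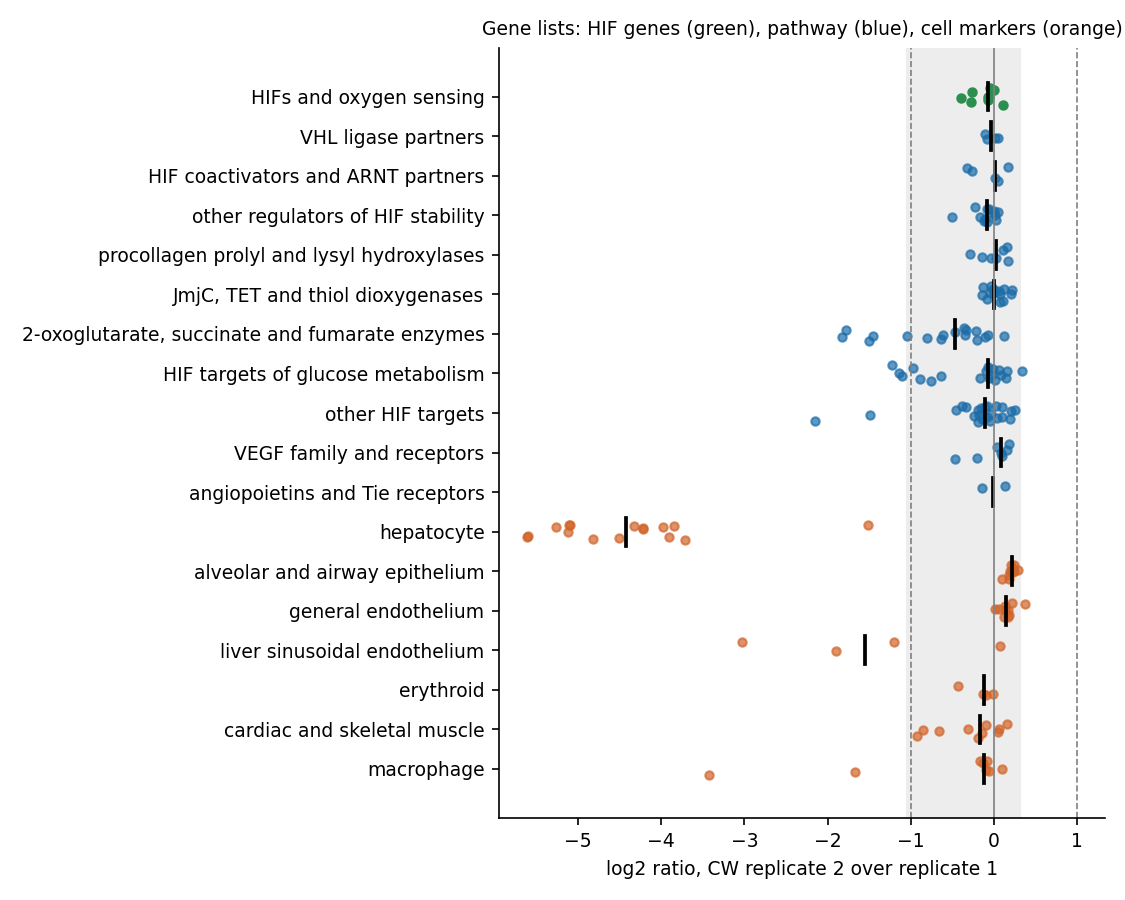
Log2 ratio of replicate 2 over replicate 1 for each tested gene of the HIF set (green), the pathway lists (blue) and the cell marker lists (orange), with a black bar at each list's median, dashed lines at 2-fold and a grey band from the 5th to the 95th percentile of all names. The HIF set clusters near 0. Left of the lower line lie 5 of 17 enzymes of 2-oxoglutarate, succinate and fumarate, a count not planned beforehand.

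The assembled genes behind these names were compared in turn, counting those with at least 20 summed counts and taking ratios on counts plus 1. Of 15 such assembled genes of the HIF set, 14 were within 2-fold and 1, the 369-base EPAS1 fragment at 0 counts in replicate 2, was lower by the bound given above. Over all 16016 named assembled genes of that depth, 9.85% were over 2-fold lower and 4.38% over 16-fold lower on this scale, where a count of 0 is set to 1. The 10 lower pathway genes had 30 such assembled genes, chosen for their low ratios: 14 were within 2-fold, 15 over 2-fold lower (4 of these over 16-fold) and 1, of ENO1, over 2-fold higher.

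For 5 of the 10, assembled genes of both kinds carried the same name. SDHA had an assembled gene of 2825 bases at 365 and 437 counts and another of 2278 bases at 2862 and 1470 counts, best matched to mouse and pig. ENO1 had 2 fragments of 377 and 374 bases at 119 and 4 counts and at 155 and 6 counts, beside 6 within 2-fold. FH had 1493 and 444 counts on its main assembled gene and 33 and 57 counts on 2 short ones. The short ones supplied 2.86 and 5.5 TPM, and 26.1 and 52.6 TPM, of the FH sums.

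**Figure D5:**
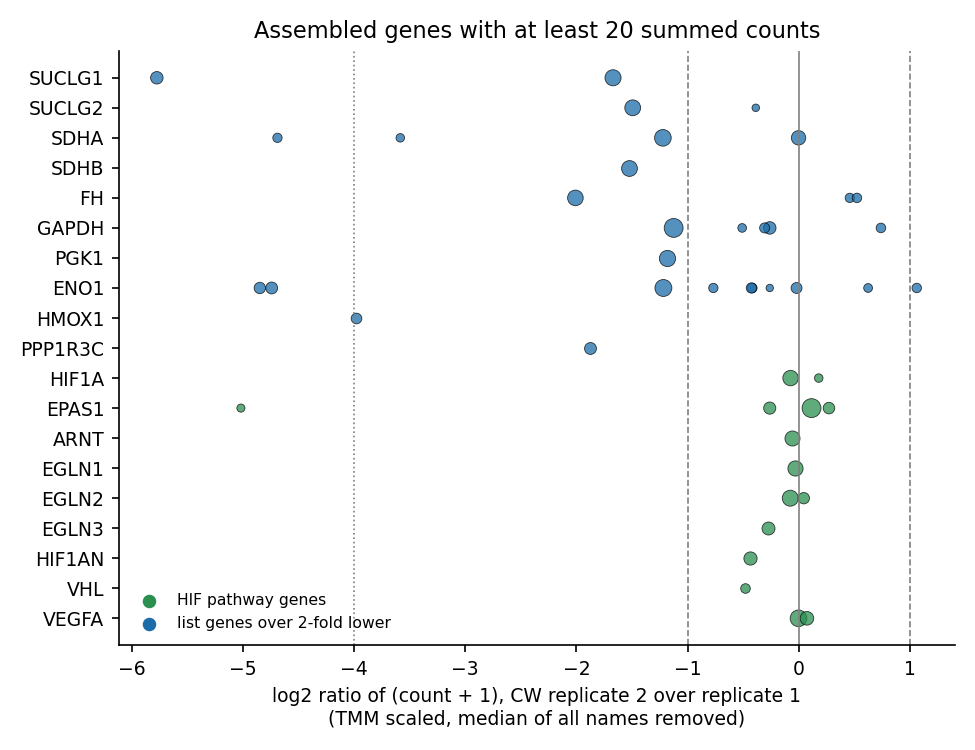
Log2 ratio of counts plus 1 for each assembled gene with at least 20 summed counts, in rows by gene, with point area growing with the log of the counts; dashed lines mark 2-fold and the dotted line 16-fold lower. HIF set genes (green) sit within 2-fold apart from the EPAS1 fragment, drawn at -5.02 only through the added count of 1 (its bound is at least 10.5-fold lower), while genes such as SDHA and ENO1 (blue) have points both near 0 and at -4.69 or -4.85.

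As a wider reading, names that the tables annotate with the Gene Ontology term response to hypoxia were counted, a set chosen after the values were seen. Without members of the HIF set there were 78, all tested, of which 2 lay beyond 2-fold on the lower side (2.56%, beside 5.16% of all names) and 0 on the higher side. Their median was -0.05. The 2 were AHCY, which hydrolyses S-adenosylhomocysteine, at 183 and 23.2 TPM, and the nuclear receptor PPARA at 2.48 and 0.26 TPM, both named after their values were seen. With the members included, EPAS1 ranked 6 of 83 by mean TPM, behind 3 mitochondrial genes, ALDOA and HSP90B1.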

How the data were processed

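Poly(A) RNA from 2 libraries of the CW group was sequenced by the authors, per the labels' protocols, and deposited as 1 table per library over the same assembled genes. The expected counts were named as counts per the file headers. The second column, which the authors deposited with no unit in its header, was taken for TPM (transcripts scaled for length and depth before deposit) from its sums of 996837 and 996239. The submitters' processing notes name cutadapt 1.9, and mm10 for replicate 1 only; the assembler's version, the quantifier and the role of mm10 are not given in the sources used here. All 10 member names were RefSeq symbols of ASM189008v1, from which no coordinates were used, and no sequence was printed.

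Expected counts were rounded, summed by upper-cased name and scaled with TMM factors (0.9097 and 1.0993) from all assembled genes, unnamed ones included (edgeR 4.0.16, R 4.3.3; DESeq2 1.42.0 size factors as an alternative). Ratios used log2(CPM + 1), which understates changes of low genes, a mean of at least 1 CPM, and the median of all names removed; past 2-fold was called. They have no p-value, since 1 library stood against 1. SDs over 2 libraries measure only the spread between these samples. Poisson and Clopper-Pearson 95% intervals and the floor of 3 counts cover counting error only. The members and lists were chosen with earlier results of these data known. Named genes are all members, up to 4 highest genes of each list, and list genes past 2-fold at a mean of at least 10 CPM; not all of the marker genes this takes are printed, and 1 pathway list gene is not reported here. Lists were cell markers of hepatocytes, alveolar and airway epithelium, endothelium, sinusoidal endothelium, erythroid cells, muscle and macrophages beside the 10 pathway lists. Erythroid markers summed to 29895 and 36323 TPM, cardiac and skeletal muscle to 619 and 683, and macrophage markers to 330 and 376. Their scaled ratios had medians of -0.12, -0.17 and -0.12, with 0 of 4, 3 of 10 and 1 of 8 above 0, and the macrophage genes MARCO and CD5L were over 2-fold lower in replicate 2. The calculation of the ratio was also run on simulated counts with 200 changed genes, with the outcome not given here. Such a run cannot address the spread behind a comparison of 1 library with 1, or the unlike marker content of these libraries. Scripts ran in Python 3.11.15 with pandas 2.3.3, matplotlib 3.10.9, scipy 1.17.1 and numpy 2.4.6.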

Additional observations from a re-analysis of the deposited data

How the results depend on the processing

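The count of HIF set genes over 2-fold apart was 0 under each of the 9 alternatives run (of the 6 left at a mean of 10 CPM). With 5.19% of all names that far apart in the main setting, 0 of so few is no result about these genes. The median ratio of the set stayed between -0.08 and -0.04 under 8 of the alternatives. With library size scaling and the median of all names kept, an alternative added after the data were seen, that median was 0.19, since this scaling leaves the median of all names at 0.24. On that scale 6 pathway list genes were over 2-fold lower in place of 10, and the matching share of all names is not given here. EPAS1 over HIF1A was 5.80 by summed TPM, 6.99 by TPM of the main assembled gene and 12.4 by counts per kilobase of it, both added after the data were seen; the cause was not tested. Of 78 single ratios under alternatives, 70 lay within the gene's counting interval in the main setting and 8 outside it. That interval belongs to the ratio without the added 1. The alternatives reuse the same counts and some intervals are wide, so this is no independent check. Single ratios with the other sign were also 8, but only in part the same ones as those outside. EPAS1 lay outside at 0.06 with ratios from TPM and at 0.37 with library size scaling and the median kept. So did VEGFA, at 0.12 and 0.26, and neither changed sign there. Without each replicate in turn the summed TPM of the set ranged from 280.4 to 363, genes at 10 TPM or more from 5 to 6, and EPAS1 over HIF1A from 5.63 to 5.96; a ratio between libraries cannot be had from 1 library. No paired analysis was possible because both libraries belong to the CW group. Depth limits VHL most, with 27 and 23 counts.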
